A study of Homo sapiens with 6 samples.

Results

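The 49 genes described here encode transcription factors that give the cells of the early neural tube their regional identity, and their chromatin accessibility was compared among human neural progenitor cells (NPCs) that differed in the H3K27 demethylases UTX and JMJD3. The members were taken from a list of such factors by gene symbol, and all 49 were found among the 20046 protein-coding genes of the GENCODE annotation of hg38. ATAC-seq, in which the transposase Tn5 cuts and tags open DNA, was carried out on NPCs derived from H1, an established human embryonic stem cell line, by inhibition of SMAD signalling with SB431542 and dorsomorphin. WT NPCs carried no engineered deletion. dKO NPCs lacked the catalytic part of both UTX (KDM6A) and JMJD3 (KDM6B), in a line from targeted hESC clones, and dKO NPCs with BAF53B carried the same deletions and a lentivirus expressing BAF53B, the neuronal actin-like subunit of the BAF chromatin remodelling complex. Each group had 2 samples but 1 deposited list of peaks, so no value below has a replicate error, no comparison between lists was tested, and the values compare 3 lists rather than 3 conditions. The study describes the WT and dKO NPCs of its ATAC-seq as passage 2. Whether the BAF53B cells were of the same passage is not given in the sources used here. Their samples are labelled NPC, whereas the study's figure of accessibility with BAF53B names differentiated cells.

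Regional identity in the neural tube is set by gradients of signals from its dorsal and ventral edges and from local organisers, which are read as combinations of homeodomain, paired-box, LIM, POU and zinc finger factors. These genes typically have long CpG-rich promoters that carry the Polycomb mark H3K27me3 in stem cells and in every region where the gene is silent, and UTX and JMJD3 are the enzymes that remove this mark. A progenitor made by SMAD inhibition alone tends towards an anterior dorsal fate, and factors of other regions are normally silent in it.

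The sequences under some of the strongest summits show what kinds of site the lists hold. The first 3 below are 201 bp windows, 100 bp on each side of a dKO summit, at the promoter peaks of highest fold among members whose window held no annotated exon, and capitals mark CG dinucleotides. The IRX5 window held 16 CG dinucleotides and 68.2% G and C, and the NKX6-1 window 25 and 74.1%, whereas the VAX1 window held 2 and 40.8%, with a run of 17 A bases beside the summit.
IRX5, 1593 bp upstream of the start, chr16:54929172-54929372, plus strand: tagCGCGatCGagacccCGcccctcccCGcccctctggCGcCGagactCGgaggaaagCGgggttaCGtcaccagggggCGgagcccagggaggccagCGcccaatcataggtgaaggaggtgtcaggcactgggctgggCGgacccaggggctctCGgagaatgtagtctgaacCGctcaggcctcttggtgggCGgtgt
VAX1, 914 bp upstream of the start, chr10:117139115-117139315, plus strand: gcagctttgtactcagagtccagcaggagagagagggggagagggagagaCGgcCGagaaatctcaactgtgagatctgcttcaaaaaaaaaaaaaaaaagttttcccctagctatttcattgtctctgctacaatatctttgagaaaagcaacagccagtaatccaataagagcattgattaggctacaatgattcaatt
NKX6-1, 176 bp upstream of the start, chr4:84499368-84499568, plus strand: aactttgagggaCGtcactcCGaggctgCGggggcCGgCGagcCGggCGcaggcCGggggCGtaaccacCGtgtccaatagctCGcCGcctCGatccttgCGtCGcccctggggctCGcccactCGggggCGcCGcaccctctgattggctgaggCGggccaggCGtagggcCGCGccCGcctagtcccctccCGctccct

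The next 3 windows are the distal dKO peaks of highest fold without the letters TAATTA, among the members described in full and windows without an annotated exon, again with CG dinucleotides in capitals. The LHX2 window, inside the gene and 216 bp from the start of another LHX2 transcript, was as CG-rich as the promoters, with 21 CG dinucleotides. The MEIS1 window held 4 CG dinucleotides in 43.8% G and C. The POU3F3 window was made largely of a repeated triplet: GGT occurred 49 times and covered 73.1% of it.
POU3F3, 28.9 kb upstream, chr2:104824335-104824535, plus strand: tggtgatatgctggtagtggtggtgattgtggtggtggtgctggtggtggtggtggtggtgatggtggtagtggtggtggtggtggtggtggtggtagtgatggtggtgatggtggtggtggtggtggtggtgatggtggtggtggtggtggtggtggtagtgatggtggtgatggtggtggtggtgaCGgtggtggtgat
LHX2, 9.88 kb downstream of the start, chr9:124011452-124011652, plus strand: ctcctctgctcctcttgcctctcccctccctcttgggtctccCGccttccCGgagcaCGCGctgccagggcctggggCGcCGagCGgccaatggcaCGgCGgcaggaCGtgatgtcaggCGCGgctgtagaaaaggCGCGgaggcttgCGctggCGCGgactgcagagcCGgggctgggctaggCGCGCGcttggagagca
MEIS1, 36.2 kb downstream of the start, chr2:66469516-66469716, plus strand: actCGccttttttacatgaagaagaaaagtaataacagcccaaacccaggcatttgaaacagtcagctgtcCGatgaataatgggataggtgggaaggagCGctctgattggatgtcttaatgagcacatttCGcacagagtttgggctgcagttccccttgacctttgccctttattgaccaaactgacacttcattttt

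The last 2 are those of highest fold with the letters TAATTA, the core read by many homeodomain proteins, here in capitals. Those letters began 10 bp after the summit at MEIS1 and 70 bp after it at VAX1.
MEIS1, 104.0 kb downstream of the start, chr2:66537112-66537312, plus strand: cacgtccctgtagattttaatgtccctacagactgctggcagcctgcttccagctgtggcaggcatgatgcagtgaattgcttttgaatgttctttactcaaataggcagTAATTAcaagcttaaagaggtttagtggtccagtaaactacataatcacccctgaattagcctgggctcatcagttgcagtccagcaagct
VAX1, 43.2 kb downstream of the start, chr10:117095015-117095215, plus strand: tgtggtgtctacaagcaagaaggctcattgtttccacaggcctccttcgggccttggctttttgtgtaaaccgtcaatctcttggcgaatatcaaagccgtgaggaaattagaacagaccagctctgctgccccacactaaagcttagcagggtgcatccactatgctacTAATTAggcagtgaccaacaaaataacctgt

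The lists differed in length, with 7880 peaks for WT NPCs, 25439 for dKO NPCs and 16948 for dKO NPCs with BAF53B, all at a −log10 q of 5.0 or above, and this difference in length enters every count below. The number of reads per sample is not recoverable from the lists, but the genome-wide background, the lowest background that any peak was scored against, was 6.33 in the WT list, 6.81 in the dKO list and 6.78 in the BAF53B list. Of 10 neural progenitor markers, 2 (VIM and NCAM1) had a promoter peak in the WT list, 8 in the dKO list and 5 in the BAF53B list. SOX1, SOX2 and NES, which define these cells, had none in the WT list. SOX1 and SOX2 had one in the dKO list and SOX1 in the BAF53B list, while NES had none in any list. The study itself reports SOX1, SOX2 and NES as less accessible in dKO than in WT NPCs. The SOX1 and SOX2 calls in these lists run the other way. A peak list does not show whether UTX and JMJD3 were deleted, so each list is called by its label, which was not checked against the cells, and list length and group cannot be told apart. Of 7 pluripotent markers, 0 had one in the WT list, 3 in the dKO list and 1 in the BAF53B list. None of 5 endoderm markers had one in any list. Of 7 mesenchyme markers, 1, 3 and 1 had one in the WT, dKO and BAF53B lists. For 6 neural crest markers the counts were 0, 2 and 2, and for 7 neuron markers 1, 3 and 1. Over all protein-coding genes the shares with one in these lists were 28.2%, 56.4% and 45.0%. The part of these marker differences in the results below was not tested.

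Few of the patterning genes had a promoter peak in the WT list, and a promoter without a peak is not shown to be closed. A promoter peak, that is, a peak within 3 kb of the 5′ end of the gene record, was present for 5 of the 49 members in the WT list (10.2%, Wilson 95% interval 4.44 to 21.8), against 28.2% of all protein-coding genes. The 5 were IRX5, POU3F2, POU3F3, DLX5 and NKX6-1. In the dKO list 26 members had one (53.1%, 39.4 to 66.3; all genes 56.4%), and in the BAF53B list 10 (20.4%, 11.5 to 33.6; all genes 45.0%). The intervals cover counting error only. The share of all genes lay above the members' interval in the WT and BAF53B lists and inside it in the dKO list.

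Relative to the WT list, 21 members had a promoter peak in the dKO list alone of the 2 (42.9%, 30.0 to 56.7; all genes 28.6%). No member had one in the WT list and not in the dKO list, 0 of 49, which allows a share of up to 6.12% at 3 counts (upper Wilson bound 7.27%; all genes 0.399%). NKX2-1 was the 1 member with a promoter peak in the BAF53B list and not in the dKO list (2.04%; all genes 2.05%). With a −log10 q of at least 10 the 21 became 12 (24.5%; all genes 28.2%), so that the excess over all genes was not kept. These counts also rested on the unequal length of the lists. When each list was cut to the 7880 peaks of highest −log10 q, 5, 6 and 4 members had a promoter peak in the WT, dKO and BAF53B lists (10.2%, 12.2% and 8.16%), against 28.2%, 33.3% and 31.1% of all genes. At that length MEIS1, SIX3, SIX6 and VAX1 had a promoter peak in the dKO list and not in the WT list, and DLX5, POU3F2 and POU3F3 had the reverse. These are 8.16% of members against 9.35% of all genes, and 6.12% against 4.24%, so the excess of members with a peak in the dKO and not the WT list was not seen at equal length. At equal length the members' share was thus below that of all genes in every list, and the dKO list held 1 member more than the WT list.

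**Figure D1:**
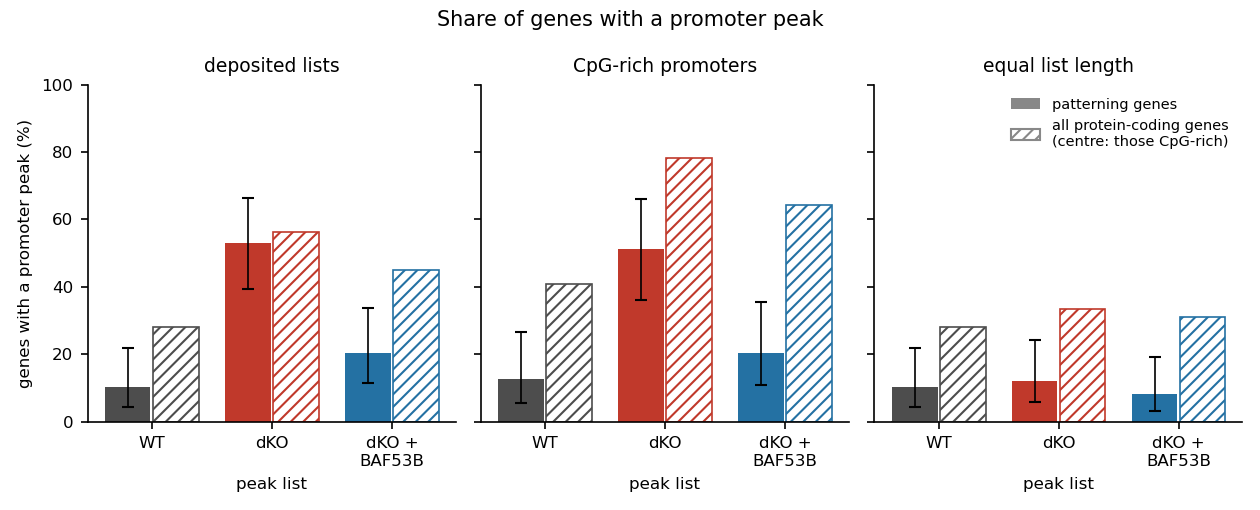
Share of genes with a promoter peak (%, linear axis from 0) in the 3 peak lists, for the patterning genes (filled bars, with Wilson 95% intervals that cover counting error only) and for all protein-coding genes (hatched bars), in the deposited lists (left), among genes with a CpG-rich promoter (centre) and with each list cut to 7880 peaks (right). Members sit below all genes in all 9 pairs of bars, and the dKO bar of members drops from 53.1% to 12.2% when the lists have equal length.

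The promoters of the members were not poor in CpG. With a CpG-rich promoter defined as at least 55% G and C and an observed over expected CpG ratio of at least 0.65 in the 500 bp on each side of the start, 39 of 49 members had one (79.6%), against 48.7% of all genes. Among these 39, 5 had a peak in the WT list (12.8%, 5.6 to 26.7; all CpG-rich promoters 40.7%), 20 in the dKO list (51.3%, 36.2 to 66.1; 78.2%) and 8 in the BAF53B list (20.5%, 10.8 to 35.5; 64.2%). CpG-rich promoters were added as a background after the data had been seen. Against this background the members' share was lower in all 3 lists, the dKO list included.

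The promoter peaks that the members had were of low fold in the dKO and BAF53B lists. The fold that MACS2 gives, the summit pileup over the local background with 1 added to each, had a median of 3.41 over the 26 members in the dKO list and 4.66 over all genes with a promoter peak there. Only 3 of the 26 (IRX5, SIX6 and SIX3) were above the median of all genes, and the members' median percentile was 17.2. In the WT list the members' median percentile was 32.9 (2 of 5 above the median, IRX5 and POU3F2), and in the BAF53B list 12.4 (1 of 10, IRX5). The median summit pileup was 48.0 for members and 57.0 for all genes in the dKO list, 38.5 and 46.0 in the BAF53B list, and 43.0 and 40.0 in the WT list, where the members' pileups were thus not low. The dKO summits of the members lay a median of 547 bp from the start, with 46.2% within 500 bp, against 126 bp and 78.3% for all genes. This distance was not common to the lists. The 10 BAF53B summits lay a median of 128 bp from the start, with 80.0% within 500 bp (all genes 121 bp and 80.1%), and the 5 WT summits 785 bp, with 40.0% (113 bp and 82.9%). The median width of the members' dKO peaks was 576 bp, against 811 bp.

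Starts of long non-coding RNA genes lay within 500 bp of the summit of 2 of 5 member promoter peaks in the WT list, 9 of 29 in the dKO list and 7 of 11 in the BAF53B list (40.0%, 11.8 to 76.9; 31.0%, 17.3 to 49.2; 63.6%, 35.4 to 84.8). Over all promoter peaks of protein-coding genes the shares were 21.0%, 18.3% and 19.4%, inside the members' interval for WT and dKO and below it for BAF53B. Accessibility at such a peak cannot be assigned to the coding gene alone. The strong IRX5 peak lay 83 bp from a start of CRNDE in the dKO list, the SIX3 peak 176 bp from one of SIX3-AS1, the DLX2 peak 8 bp from one of DLX2-DT, the ISL1 peak 17 bp from one of ISL1-DT and the first MEIS1 peak 132 bp from one of MEIS1-AS3.

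**Figure D2:**
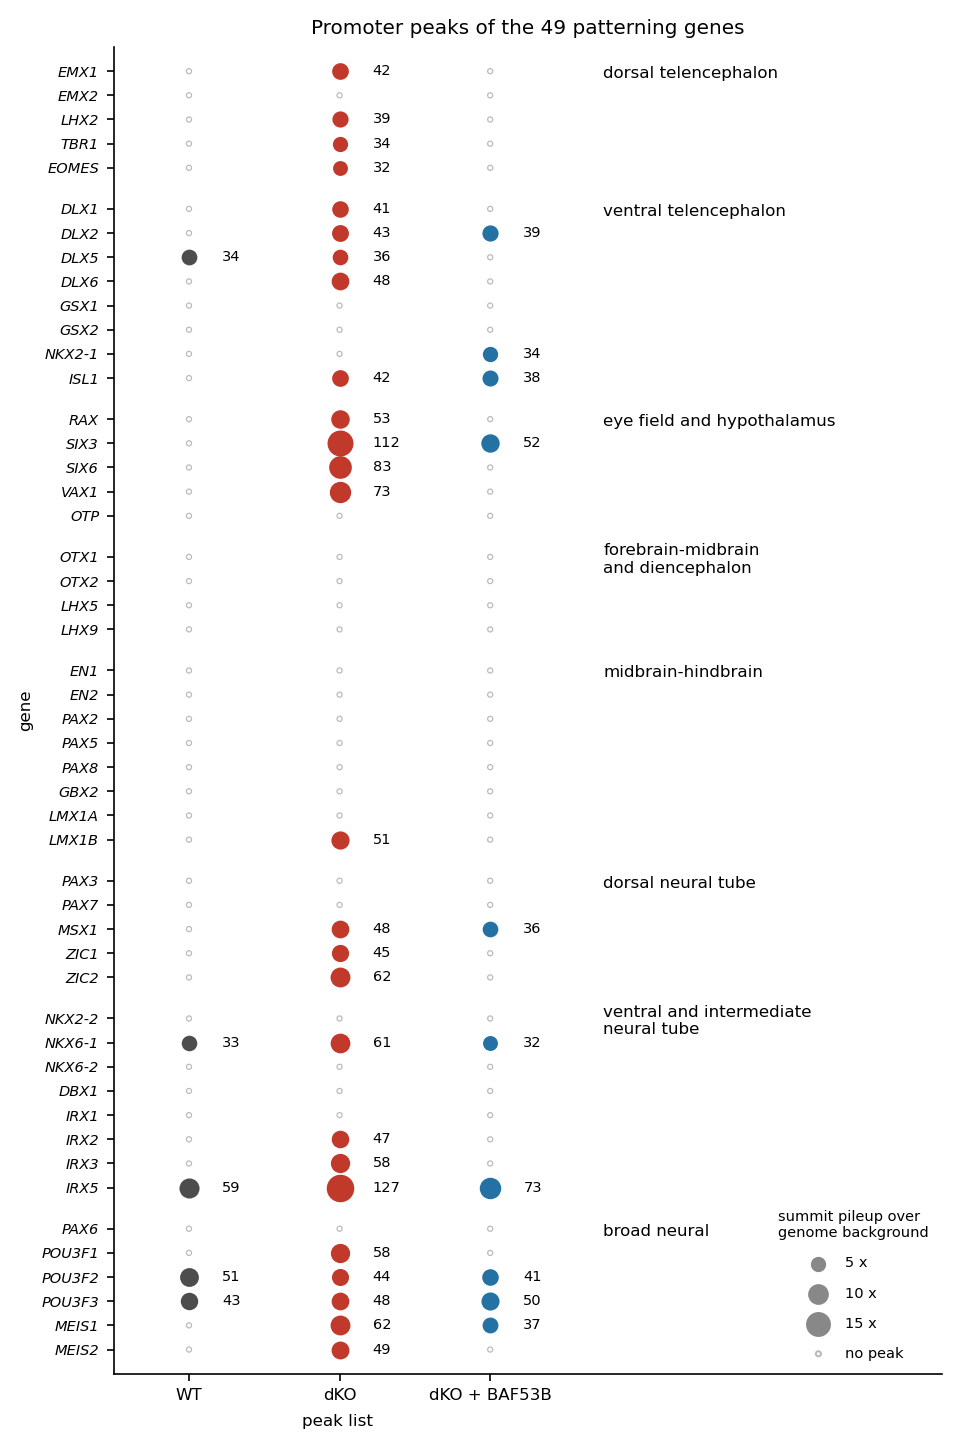
Promoter peaks of the 49 patterning genes (rows, grouped by the region each factor is known for) in the 3 peak lists (columns). The area of a filled circle is in proportion to the summit pileup over the genome background of the list, the number beside it is the summit pileup, and an open circle marks a promoter without a peak; the largest circle is IRX5 in the dKO list, at 127.

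No promoter peak was present in any list for 22 members. In 16 members the peak was in the dKO list alone, in 5 (DLX2, ISL1, SIX3, MSX1 and MEIS1) in the dKO and BAF53B lists, and in 4 (IRX5, NKX6-1, POU3F2 and POU3F3) in all lists. DLX5 had one for WT and dKO NPCs, and NKX2-1 in the BAF53B list. Of the 26 members with a dKO promoter peak, 9 had one in the BAF53B list (34.6%), against 76.1% of all genes with a dKO promoter peak, and 5 had one in the WT list (19.2%), against 49.3%. The low fold of the members' peaks in the dKO list went with these low shares, and its part in them was not tested.

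In the dorsal telencephalon class, which builds the cortex, 4 of 5 members had a promoter peak in the dKO list and none in the WT or BAF53B list. For this and each class below, the shares over all genes were 28.2%, 56.4% and 45.0% in the WT, dKO and BAF53B lists. At equal list length none of these 4 members kept a dKO promoter peak. EMX1, which marks cortical progenitors, had a summit pileup of 42, LHX2, a LIM factor that selects cortical over hem identity, 39, TBR1, a factor of deep-layer cortical neurons, 34, and EOMES, which marks intermediate progenitors, 32. All 4 were below the 10th percentile of fold among genes with a dKO promoter peak, from EMX1 at 1.21 to TBR1 at 8.4. EMX2, the partner of EMX1, had no peak in any list within its gene body and 50 kb on each side, here called its domain.

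LHX2 had the most domain peaks of this class, 1 in the WT list, 4 in the dKO list and 1 in the BAF53B list. The peak common to the 3 lists lay 9.9 kb into the gene, with a pileup of 56 (Poisson 95% interval 42.3 to 72.7) in the WT list, 104 (85.0 to 126) in the dKO list and 53 (39.7 to 69.3) in the BAF53B list. The dKO interval did not meet the other 2, which overlapped each other. After division by the genome background, the log2 ratio of dKO over WT was 0.79 and that of BAF53B over dKO −0.96. The medians over all peaks called in both lists were 0.71 and −0.36, and no difference was tested. The peak common to the 3 lists is the CG-rich window printed above. It counts as a promoter peak of LHX2 in all 3 lists when the start of the canonical transcript is used.

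In the ventral telencephalon class, whose members direct the formation of GABAergic neurons, 1, 5 and 3 of 8 members had a promoter peak in the WT, dKO and BAF53B lists. DLX5 had a WT pileup of 34 (23.5 to 47.5) and a dKO pileup of 36 (25.2 to 49.8), at 2.86 and 2.82 kb upstream of the start, and no BAF53B peak. DLX6, its neighbour, and DLX1, the neighbour of DLX2, had a peak in the dKO list alone, with 48 and 41, while DLX2 had 43 in the dKO list and 39 in the BAF53B list. ISL1, a LIM factor of striatal and motor neurons, had 42 and 38 in the dKO and BAF53B lists. For DLX2, DLX5 and ISL1 the pileups of the lists that held a peak were within counting error of one another. DLX5 and DLX6 lie within 50 kb of each other and share their 3 dKO domain peaks.

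NKX2-1, which specifies the medial ganglionic eminence, had a BAF53B promoter peak with a pileup of 34 (23.5 to 47.5) and a fold of 3.54, 399 bp inside the gene and also within 3 kb of the start of SFTA3. Neither the WT nor the dKO list had any peak in its domain. GSX1, which acts early in ventral progenitors, had no promoter peak but a pair of distal peaks, 34.3 and 37.7 kb downstream, in both the dKO list (pileups 34 and 40) and the BAF53B list (43 and 32). GSX2 had 1 distal peak, in the dKO list, 7.25 kb upstream with a pileup of 33.

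The eye field and hypothalamus class held the members whose dKO promoter peaks were strongest after IRX5. SIX3, which represses posterior signals in the anterior neural plate, had a pileup of 112 (92.2 to 135) with a fold of 4.86 at 38 bp inside the gene in the dKO list and 52 (38.8 to 68.2) with a fold of 3.14 in the BAF53B list, and none in the WT list. SIX6, a factor of the optic vesicle and pituitary, had a pileup of 83 (66.1 to 103) and a fold of 5.55 in the dKO list alone, 72 bp upstream. VAX1, of the ventral optic stalk, had 73 (57.2 to 91.8) and a fold of 4.36, 914 bp upstream, in the dKO list alone, at the A-rich window shown above. RAX, which begins eye field formation, had 2 dKO promoter peaks, of 53 at 573 bp inside the gene and 37 at 2.2 kb upstream. Thus 4 of 5 members had a dKO promoter peak, and SIX3 was the 1 with a BAF53B promoter peak. OTP, a factor of hypothalamic neurons, had none, and its 1 domain peak, in the dKO list, lay at the promoter of WDR41.

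The 4 members of the eye field and hypothalamus class with a dKO promoter peak also had distal dKO peaks. SIX3 had distal dKO peaks 8.3 and 10.6 kb downstream of its start, with pileups of 70 and 51, and the first was called in the BAF53B list too, with 34. SIX3 also had the 1 WT distal peak among the members that the dKO list lacked, 40.1 kb downstream, with a pileup of 31. RAX had a distal peak 34.6 kb upstream in both the dKO (41) and BAF53B (30) lists and 4 dKO domain peaks in all, 1 of them at the promoter of GRP. VAX1 had 3 distal dKO peaks and 2 distal BAF53B peaks, of which the 1 at 43.2 kb, with the TAATTA letters shown above, was called in both lists (54 and 38). SIX6 had 4 dKO domain peaks, 1 of them at the promoter of C14orf39, and none in the other lists.

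Of the forebrain-midbrain and diencephalon class (OTX1, OTX2, LHX5 and LHX9), no member had a promoter peak in any list. OTX2, which is required for forebrain and midbrain and is a usual marker of anterior NPCs, had 1 distal peak 39.4 kb upstream, with a pileup of 78 (fold 6.46) in the dKO list and 43 (fold 3.85) in the BAF53B list. LHX5, a factor of the thalamic eminence and hypothalamus, had 3 dKO domain peaks and none in the other lists: distal ones 43.0 kb upstream and 32.5 kb downstream, with pileups of 39 and 40, and 1 at the promoter of SDSL, with 36. The 1 domain peak of LHX9 was shared by all lists and lay at the promoter of C1orf53. OTX1 had no domain peak in any list.

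Like several other classes, the midbrain-hindbrain class had more distal than promoter peaks. Of its 8 members, LMX1B alone had a promoter peak, in the dKO list, 2.15 kb upstream with a pileup of 51. All 8 members had distal peaks in the dKO list, 21 in all, against 3 in the WT list and 6 in the BAF53B list, and 2 and 4 members had any in those. PAX5, LMX1A, PAX2 and LMX1B have long gene bodies, of 201.0, 155.0, 94.5 and 87.1 kb, and thus wide domains, so these counts are not comparable with those of other classes. In the dKO list distal peaks also outnumbered members with a promoter peak in other classes. They did so in the forebrain-midbrain and diencephalon (3 against 0) and eye field and hypothalamus (8 against 4) classes. The dorsal neural tube (8 against 3) and broad neural (18 against 5) classes were alike. The dorsal telencephalon (3 against 4), ventral telencephalon (4 against 5), and ventral and intermediate neural tube (2 against 4) had the reverse. Among the midbrain-hindbrain members, LMX1A, a factor of midbrain dopaminergic progenitors and the roof plate, had the most distal peaks, 5 in the dKO list. They had pileups of 29 to 37. The BAF53B list held 1 of 29, 91.3 kb into the gene, which overlapped none of the 5. LMX1B had a strong distal peak 106.0 kb downstream, with a pileup of 91 (73.3 to 112) in the dKO list and 30 (20.2 to 42.8) in the BAF53B list. Among the 30 member peaks called in both lists this was the greatest drop from dKO to BAF53B.

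PAX5 and PAX8, which with PAX2 set up the isthmus between midbrain and hindbrain, were among the few members with distal peaks in all lists. The PAX5 peak 6.5 kb into the gene had pileups of 57, 87 and 45 in the WT, dKO and BAF53B lists, and a second one 45.6 kb upstream 29, 40 and 42. The PAX8 peak 79.6 kb downstream of the start had 34, 55 and 35. PAX2 had 3 distal dKO peaks, with pileups of 42 to 47. EN1, EN2 and GBX2, the latter a hindbrain factor that opposes OTX2, had 1 distal dKO peak each, with pileups of 31, 35 and 31, and no peak in the other lists.

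**Figure D3:**
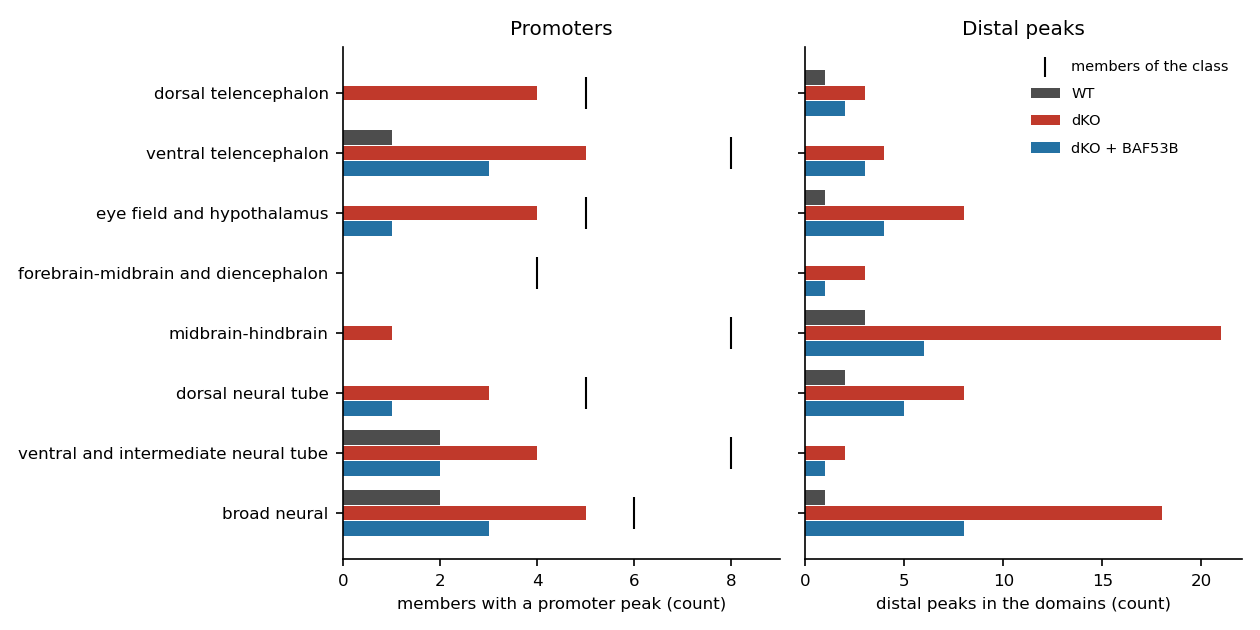
Members with a promoter peak (left, count; the vertical tick is the number of members in the class) and distal peaks in the domains of the members (right, count) by regional class, for the WT (grey), dKO (red) and BAF53B (blue) lists. Midbrain-hindbrain members have 1 dKO promoter peak but 21 distal dKO peaks, and the dorsal telencephalon has 4 and 3.

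In the dorsal neural tube class, 0, 3 and 1 of 5 members had a promoter peak in the WT, dKO and BAF53B lists. MSX1, a BMP target of the roof plate, had pileups of 48 and 36 in the dKO and BAF53B lists. ZIC2, a zinc finger factor of the dorsal midline, had 62 in the dKO list. ZIC1 had a dKO promoter peak of 45, 1.05 kb upstream, and was the member with the most BAF53B domain peaks, 5, against 2 for WT and 4 for dKO NPCs. Its BAF53B peaks 15.2 kb upstream (37) and 15.8 kb downstream of the start (44) were called in neither other list. The latter lay at the promoter of ZIC4. When the start of the canonical transcript is used, ZIC1 has a promoter peak in the BAF53B list and not in the dKO list. Its peak 3.9 kb into the gene had a pileup of 40 (28.6 to 54.5) in the WT list, 48 (35.4 to 63.6) in the dKO list and 60 (45.8 to 77.2) in the BAF53B list, and another 25.9 kb into it had 34, 46 and 44. These intervals overlapped. PAX3 and PAX7, factors of dorsal progenitors and neural crest, had no promoter peak and 2 and 3 distal dKO peaks, with pileups of 28 to 42.

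In the ventral and intermediate neural tube class, 2, 4 and 2 of 8 members had a promoter peak. IRX5, an Iroquois homeodomain factor, had the strongest promoter peak of all members in each list, 1.59 to 1.61 kb upstream, with pileups of 59 (44.9 to 76.1), 127 (106 to 151) and 73 (57.2 to 91.8) and folds of 5.32, 7.11 and 4.88 for WT, dKO and BAF53B. The dKO interval did not meet the other 2, which overlapped. After division by the genome background, the log2 ratio of dKO over WT was 1.0 and that of BAF53B over dKO −0.79. Over all peaks called in both lists the medians were 0.71 and −0.36, and no difference was tested. A second IRX5 promoter peak, with pileups of 59 and 58, was called in the dKO and BAF53B lists and not in the WT list. A distal BAF53B peak 6.72 kb downstream of the IRX5 start, with a pileup of 35, was called in neither other list. NKX6-1, which specifies ventral motor neuron progenitors, had pileups of 33 (22.7 to 46.3), 61 (46.7 to 78.4) and 32 (21.9 to 45.2). The folds were 3.25, 4.33 and 3.06, and both measures were again highest in the dKO list. Its log2 ratio of dKO over WT was 0.78 and that of BAF53B over dKO −0.92. IRX3 had a dKO promoter peak of 58. IRX2 had a dKO promoter peak of 47, a distal dKO peak of 37 at 28.9 kb upstream, and no domain peak in the other lists. The other 4 members, NKX2-2, NKX6-2, DBX1 and IRX1, had no domain peak in any list, so that 4 of the 6 members without any were of this class.

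In the broad neural class, 2, 5 and 3 of 6 members had a promoter peak. POU3F2 (BRN2), a POU factor of neural progenitors and upper-layer neurons, had a pileup of 51 (38.0 to 67.1) for WT, 44 (32.0 to 59.1) for dKO NPCs and 41 (29.4 to 55.6) in the BAF53B list. The folds were 5.03, 3.53 and 3.26, at 44 to 80 bp upstream of the start. It was the 1 member promoter whose pileup, before division by the genome background, was highest in the WT list, though the intervals overlapped. POU3F3 (BRN1) had 43, 48 and 50, also within counting error, at 726 to 785 bp inside the gene. Its folds were 3.69, 3.43 and 3.35 for WT, dKO and BAF53B. By fold, WT was thus highest at POU3F2, POU3F3 and DLX5 (3.36, against 2.96 for dKO NPCs). At IRX5 and NKX6-1 the fold was highest for dKO NPCs. Divided by the genome background, the DLX5 pileup was 5.37 for WT and 5.28 for dKO NPCs. POU3F1 (OCT6) had a dKO promoter peak of 58 and a distal peak 34.1 kb downstream of 46 (33.7 to 61.4), 96 (77.8 to 117) and 72 (56.3 to 90.7) in the WT, dKO and BAF53B lists. PAX6, the usual marker of human NPCs, had no peak within 3 kb of the 5′ end of its gene record. A peak 6.8 kb into it in the WT list (37) and 6.6 kb into it in the dKO list (59), absent from the BAF53B list, counted as a PAX6 promoter peak when the start of the canonical transcript was used.

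MEIS1, a TALE homeodomain cofactor of HOX and PBX proteins, had the most peaks of all members: 0 in the WT list, 11 in the dKO list and 3 in the BAF53B list. Its 2 dKO promoter peaks had pileups of 62 (47.5 to 79.5), 1.65 kb into the gene, and 41, 150 bp into it, and the latter was called in the BAF53B list as well, with 37 (26.1 to 51.0). Its 9 distal dKO peaks ran from 6.75 kb upstream to 172.0 kb downstream of the start, with pileups of 25 to 49. Of the 9, 1 overlapped a BAF53B peak. MEIS2 had a dKO promoter peak of 49 and 4 distal dKO peaks, with pileups of 25 to 34. MEIS1 and MEIS2 have long gene bodies and thus wide domains, and counts of peaks are not comparable between genes of different length.

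**Figure D4:**
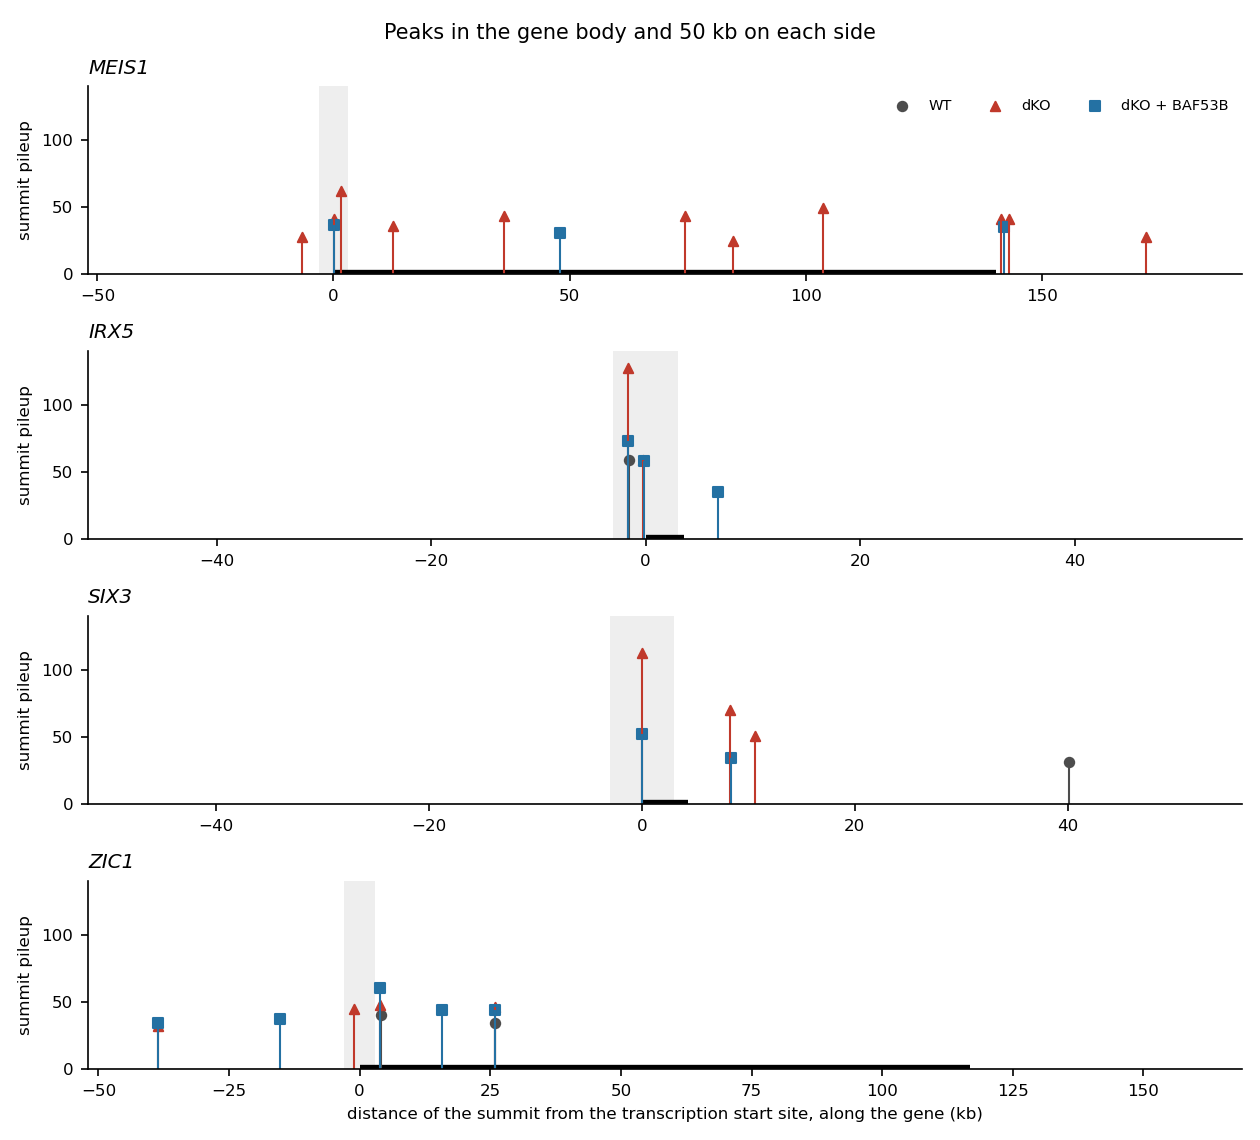
Summit pileup (vertical axis, linear) against distance of the summit from the start site along the gene (kb) for all peaks in the domains of MEIS1, IRX5, SIX3 and ZIC1, in the WT (grey circles), dKO (red triangles) and BAF53B (blue squares) lists; black bars are gene bodies and grey bands the promoter windows of 3 kb on each side. MEIS1 has 11 dKO peaks and no WT peak, whereas ZIC1 has 2, 4 and 5 peaks in the WT, dKO and BAF53B lists.

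Over all members, the domains held 15 different peaks in the WT list, 106 in the dKO list and 44 in the BAF53B list. Of these, 8, 67 and 30 were distal, more than 3 kb from the 5′ end of every protein-coding gene record. Distal BAF53B peaks called in neither other list lay in the domains of EOMES, NKX2-1, VAX1, PAX8, LMX1A, PAX7, ZIC1, IRX5, POU3F3, MEIS1 and MEIS2. At equal list length the domain peaks numbered 15, 17 and 13. At least 1 distal peak was present for 6 members in the WT list (12.2%, 5.73 to 24.2; all genes 21.1%), 29 in the dKO list (59.2%, 45.2 to 71.8; all genes 61.5%) and 19 in the BAF53B list (38.8%, 26.4 to 52.8; all genes 43.8%). The mean number of distal peaks per gene was 0.163, 1.39 and 0.612 for members and 0.255, 1.27 and 0.688 for all genes. The share of all genes with a distal peak lay inside the members' interval in all 3 lists. Members' domains were the narrower ones, with a median of 107 kb against 127 kb for all genes, for which these shares are not adjusted. Another annotated transcript start of the member lay within 3 kb of 3 of the 8 WT, 6 of the 67 dKO and 4 of the 30 BAF53B distal peaks.

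Counting peaks of every kind, 13 members had domain peaks in the dKO list and in neither other list (26.5%, 16.2 to 40.3), against 8.7% of all genes. These were EMX1, TBR1, GSX2, SIX6, OTP, LHX5, EN1, EN2, PAX2, GBX2, PAX3, IRX2 and IRX3, which include members of every regional class but the broad neural one. The only domain peak of OTP lay at the promoter of WDR41. The share of 26.5% rests on the unequal lists and was not computed at equal length. At equal length the members' domains held 15, 17 and 13 peaks in the WT, dKO and BAF53B lists. Domain peaks in all 3 lists were present for 11 members (22.4%, 13.0 to 35.9; all genes 56.8%), and 6 members had none in any list (12.2%, 5.73 to 24.2; all genes 12.5%).

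Pileups at peaks called in more than 1 list were compared after division by the genome background of each list. A pool of cells was measured, so more cells with an open site and a more open site per cell cannot be told apart. At the 14 member peaks called in the WT and dKO lists, the median log2 ratio of dKO over WT was 0.43 (range −0.32 to 1.0), and 12 of 14 were above 0. Over all 6255 such peaks the median was 0.71 and 91.5% were above 0, so higher dKO values were not particular to the members. The highest ratios were at the IRX5 promoter (1.0) and the distal peaks of POU3F1 (0.96) and LHX2 (0.79), and the lowest at the POU3F2 promoter (−0.32). At the 12 member peaks called in the WT and BAF53B lists the median of BAF53B over WT was 0.08 (−0.44 to 0.55; all such peaks 0.24).

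At the 30 member peaks called in the dKO and BAF53B lists, the median log2 ratio of BAF53B over dKO was −0.25 (range −1.59 to 0.35). Of the 30, 8 were above 0. Over all 11275 such peaks the median was −0.36 and 20.7% were above 0. The lowest ratios were at the LMX1B distal peak (−1.59), the SIX3 promoter (−1.1) and the SIX3 distal peak 8.3 kb downstream (−1.03), and the highest at the GSX1 distal peak 34.3 kb downstream (0.35) and the ZIC1 peak 3.9 kb into the gene (0.33). The 3 comparisons share lists with one another. A peak weak in 1 list is called in another only if it passes the threshold there, so these ratios describe shared peaks and not sites lost from a list.

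**Figure D5:**
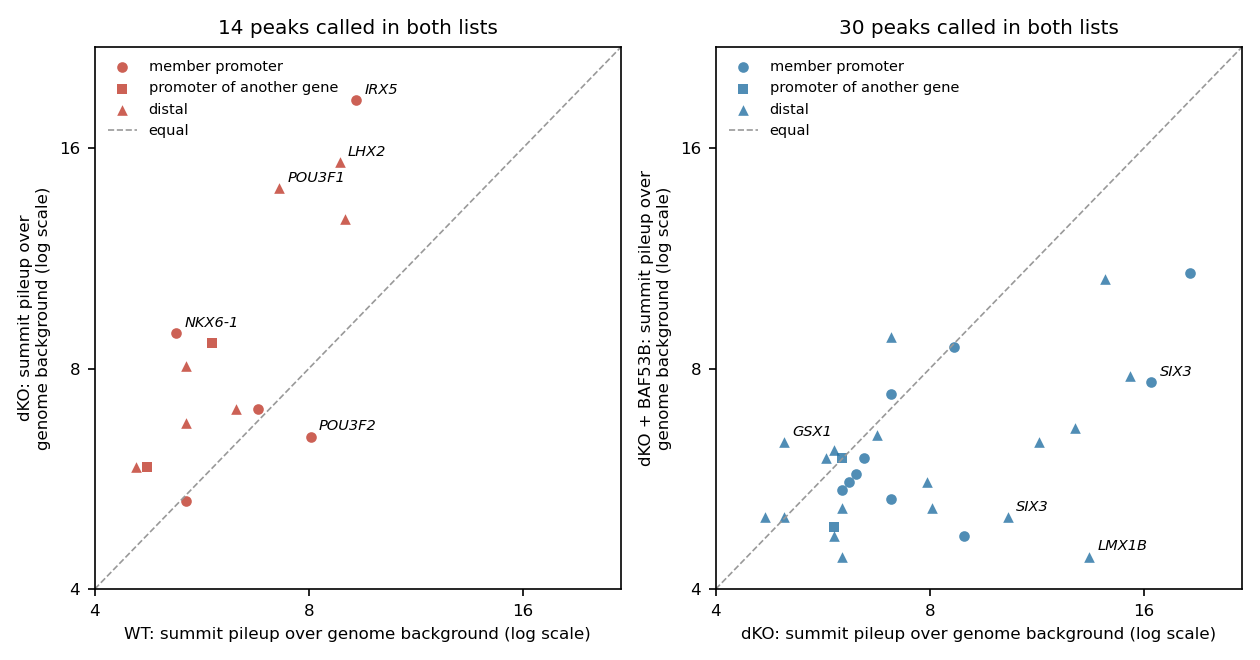
Summit pileup over the genome background of each list (both axes logarithmic) at member domain peaks called in both the WT and dKO lists (left, 14 peaks) and in both the dKO and BAF53B lists (right, 30 peaks), by kind of peak; the dashed line marks equal values. On the left 12 peaks lie above the line, with POU3F2 and DLX5 below it, and on the right 22 lie below it, LMX1B and SIX3 farthest.

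The 67 distal dKO peaks of the members were searched, within 100 bp of the summit and on both strands, for the letters TAATTA (homeodomain), TAATCC (OTX), ATGCAAAT (POU), TGACAG (MEIS), AGNGGGCNC (core of CTCF) and, added after the data had been seen, TGANTCA (AP-1). TAATTA was found in 6 (8.96%, 4.17 to 18.2), against 4.01% of all distal dKO peaks, at MEIS1 (3 peaks), VAX1, LHX5 and ZIC1. TAATCC was found in 4.48% (all 5.53%), TGACAG in 8.96% (all 15.7%), AGNGGGCNC in 11.9% (all 8.7%) and TGANTCA in 2.99% (all 6.5%). ATGCAAAT was found in none of 67, which allows a share of up to 4.48% at 3 counts (upper Wilson bound 5.42%; all 1.01%). The share over all distal peaks lay inside the members' 95% interval for each of these letters but TAATTA, for which 4.01% was just under the lower bound. Over the distal and promoter peaks of the 3 lists, 36 such shares were compared with no adjustment, and 2 others had the share of all peaks outside the interval. AGNGGGCNC was found in 5 of 30 distal BAF53B peaks of the members (16.7%, 7.34 to 33.6; all 6.38%), and TAATCC in 3 of their 29 dKO promoter peaks (10.3%, 3.58 to 26.4; all 2.65%). Within 50 bp of the summit TAATTA was found in 4.48% of the members' distal dKO peaks, and no share over all distal peaks is given at that width. The interval for TAATTA counts the 3 MEIS1 peaks as independent. The median G and C content was 59.7% in the members' distal dKO peaks and 55.7% in all. A match of letters does not show binding.

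The members were set beside 4 other gene lists, counted in the same way. Of 47 other neural patterning factors, 2, 14 and 11 had a promoter peak in the WT, dKO and BAF53B lists (4.26%, 29.8% and 23.4%). Of 17 morphogens and their regulators, 1, 4 and 1 had one, with CYP26B1, which breaks down retinoic acid, in all lists. Of 42 factors of non-neural lineages, 0, 9 and 7 had one (21.4% and 16.7% in the dKO and BAF53B lists), and of 39 HOX genes, 0, 3 and 1. Over all protein-coding genes the shares were 28.2%, 56.4% and 45.0% in the WT, dKO and BAF53B lists. In the BAF53B list the share of the 49 members, 20.4%, was below that of the other neural patterning factors. It was above that of the remaining gene lists. In the dKO list the members' share, 53.1%, stood above that of each of these 4 lists but not above that of all genes. These lists differ in CpG content, with 33 of 47, 10 of 17, 25 of 42 and 21 of 39 promoters CpG-rich against 39 of 49 among the members, and the difference was not tested.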

How the data were processed

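ATAC-seq was carried out on 6 samples, 2 in each of 3 groups (WT, dKO, and dKO with BAF53B), with a Nextera kit. According to the submitters' processing notes and the methods, adaptors were removed with cutadapt 1.13, reads were aligned to hg38 with Bowtie2 2.2.5, duplicates were removed with SAMtools 1.3.1 and Picard 1.90, and peaks were called with MACS2. Its version and options, and whether reads were shifted for the Tn5 cut, are not given in the sources used here. The authors deposited 1 peak list per group, which its 2 samples share, kept at a −log10 q of 5 or above. Each deposited line gives a fold enrichment, the ratio of summit pileup to local background with 1 added to each, and the −log10 p and −log10 q values of that summit as the authors' peak caller wrote them.

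Peak starts were converted to 1-based positions. The pileup was solved from the fold and the −log10 p, assuming the Poisson tail of MACS2, and was whole for 100.0% of peaks within 0.001 on the −log10 scale. The recovery, the window overlap and the letter search were tested on simulated data. A promoter was the 5′ end of the GENCODE 44 gene record with 3 kb on each side, a domain the gene body with 50 kb on each side, and a peak counted with an overlap of 1 bp. Shares have Wilson and pileups exact Poisson 95% intervals, which cover counting error only; without replicates no test was run, and the number of reads per sample is unknown. Python 3.11.15, pandas 2.3.3, scipy 1.17.1, statsmodels 0.14.6 and pysam 0.24.0 were used. Sequences were read from the hg38 genome, whose chromosome ends contain all peaks.

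The members, the regional classes and the comparison lists were chosen with earlier results of these data known. Values are given for every list for members with a WT promoter peak, the 6 highest dKO promoter folds, members with a BAF53B or WT promoter peak that dKO NPCs lacked, and the member of each class with the most dKO domain peaks, 16 in all. Each other member is named. The distal peaks of the members are not all listed. Alternatives were a stricter threshold, lists of equal length, other windows, other starts and other overlaps. The AP-1 letters and the CpG-rich background were added after seeing the data.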

Additional observations from a re-analysis of the deposited data

How the results depend on the processing

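Of 56 values recomputed under another setting, 38 stayed within 1.5 times the reported count or within the interval of the reported value, 18 moved and none changed sign. With a −log10 q of at least 10 in every list, members with a promoter peak numbered 2 (WT, 4.08%; all genes 14.3%), 13 (dKO, 26.5%; 42.2%) and 2 (BAF53B, 4.08%; 28.7%), 12 had one in dKO and not in WT (24.5%; 28.2%), 1 (POU3F2) had the reverse (2.04%; 0.269%), the domains held 5, 40 and 10 peaks, and the median log2 ratio of dKO over WT was 0.87 over 4 peaks. With lists of equal length the dKO and BAF53B counts were 6 and 4, members with a peak in dKO and not in WT numbered 4 and the reverse 3, and the dKO and BAF53B domains held 17 and 13 peaks. A promoter window of 1 kb gave 3 WT members, the starts of all transcripts gave 9 (adding LHX2, PAX5, PAX6 and ZIC1), and a reach of 100 kb gave 25 WT domain peaks. In the equal-length and stricter settings fewer peaks enter by construction. Under the authors' fold the median log2 ratio of dKO over WT was 0.17 and that of BAF53B over dKO −0.13, nearer to 0 with the same sign. No paired analysis was possible because the 2 samples of a group share their peak calls, which carry no replicate number, and for the same reason no replicate could be left out. Sites under the smallest pileup of a list, 25 (WT and dKO) or 26 (BAF53B), were not detectable in it, so a promoter without a peak is not shown to be closed.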

Other observations

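The repeated-triplet window 28.9 kb upstream of POU3F3 was called in dKO NPCs alone, with a pileup of 50 and a fold of 5.23, although GGT covered 73.1% of its 201 bp. How reads that map to such a repeat were treated is not given in the sources used here, and the part of mapping in this peak was not tested.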
